A study of Mus musculus with 8 samples.

Results

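Oxidative phosphorylation subunits are the proteins that build the respiratory chain and the ATP synthase of mitochondria. Members were the genes whose symbol carries a subunit name of complex I (Nduf and mt-Nd), complex II (Sdh), complex III (Uqcr and mt-Cytb), complex IV (Cox and mt-Co) or the ATP synthase, complex V (Atp5 and mt-Atp). The symbols matched 99 of 20152 genes, of which 86 are encoded in the nucleus and 13 in mitochondrial DNA. By complex the nuclear members number 41, 4, 8, 16 and 17 from complex I to V, and the mitochondrial members number 7, 0, 1, 3 and 2. The pattern leaves out a few subunits with other names, among them Ndufab1 of complex I and Cyc1 of complex III, for which the authors' deposited table has log2 fold changes of -0.40 and -0.27.

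Embryonic mouse back skin at E14.5 was profiled by RNA-seq of total RNA in 4 GNAQ R183Q samples, labelled mutant, and 4 wild-type samples, labelled control. GNAQ is the alpha subunit of the G protein Gq, and the labels do not say which cells carried the R183Q change, by which allele or promoter, or on which strain. The submitters call the samples biologically independent, and all of them carry the same batch label. What was analysed is the authors' DESeq2 comparison of the genotypes, with log2 fold changes (GNAQ R183Q over wild type), p-values, mean expression over all libraries, and the mean and median z-score of log2 CPM in each genotype. Values of single libraries were not used here, so their depth is unknown, and each error or interval (95%) is the one that the authors' p implies for their fold change. Epidermal genes were abundant, with mean expression of 23045 for Dmkn and 11406 for Krt15 in the authors' deposited table. In RNA of whole skin, fewer cells of a type and less RNA per cell cannot be told apart.

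In mitochondria, complexes I and II pass electrons from NADH and succinate to coenzyme Q, complex III passes them on to cytochrome c, and complex IV to oxygen. Complexes I, III and IV pump protons across the inner membrane, and the ATP synthase lets the protons flow back to make ATP. All of these except complex II are mosaics of proteins from the nuclear and the mitochondrial genome. Mitochondrial genes are transcribed as long polycistronic RNAs that are cut mostly at tRNAs, while nuclear subunit genes lie scattered over the chromosomes and share regulators such as NRF1, GABP and the estrogen-related receptors.

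The mitochondrial genes with the highest log2 fold changes are short and overlap a neighbour, so their sequences are shown here, with the shared bases in capitals, 5′ to 3′ on the coding strand. mt-Atp8, a small membrane subunit of the ATP synthase, has a coding sequence of 204 bases, whose last 43 bases are also the first of mt-Atp6. mt-Nd4l, a small membrane subunit of complex I, has 297 bases, whose last 7 are the first of mt-Nd4. They come from GENCODE vM21 transcripts of chromosome MT in GRCm38, which is not the authors' build. mt-Atp8 is whole, mt-Atp6 and mt-Nd4 are given by their first 90 bases, and mt-Nd4l by bases 208 to 297.
mt-Atp8: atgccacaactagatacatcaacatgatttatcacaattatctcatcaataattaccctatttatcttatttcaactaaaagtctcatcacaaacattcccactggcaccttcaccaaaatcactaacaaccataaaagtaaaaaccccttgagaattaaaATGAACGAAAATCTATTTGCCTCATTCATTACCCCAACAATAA
mt-Atp6: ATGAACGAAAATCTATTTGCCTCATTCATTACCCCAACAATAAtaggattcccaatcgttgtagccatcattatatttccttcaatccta
mt-Nd4l: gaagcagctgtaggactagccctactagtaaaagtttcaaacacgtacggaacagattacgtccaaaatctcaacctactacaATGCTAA
mt-Nd4: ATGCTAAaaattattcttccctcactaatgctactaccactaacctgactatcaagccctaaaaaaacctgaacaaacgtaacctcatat

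Most nuclear subunit genes stood slightly lower in GNAQ R183Q than in wild-type skin and most mitochondrial genes slightly higher, while few single differences passed the test. Of the 86 nuclear members 77 had a negative log2 fold change, with a median of -0.29, or 0.817-fold, and a range of -0.79 to 0.48. Of the 13 mitochondrial members 10 had a positive one, with a median of 0.18, or 1.13-fold, and a range of -0.40 to 0.70. Over all genes 49.0% of log2 fold changes were negative and the median was 0.01. The members share the same 8 libraries, so these counts describe the table and are no test of one set against the other.

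At an adjusted p of 0.05 over all genes (authors' DESeq2), 2 of the 99 members fell and 0 rose. The background in the table was 3.09% called, 2.46% lower and 0.63% higher, so the members' 2.02% is near the background. Those are 127 higher and 495 lower genes, and 188 and 402 once a trend on transcript length and GC content is removed. At an adjusted p of 0.1, 3 members were called, against 4.53% of all genes. At an unadjusted p of 0.05, 12 members were lower, all nuclear, and 2 were higher, both mitochondrial, against 8.23% lower and 5.94% higher among all genes. Nuclear members are short. Of those with transcripts of up to 1 kb, 17.6% were lower at that level, against 21.4% of other genes of at least 1 CPM. Between 1 and 2 kb the shares were 12.5% and 15.8%, and above 2 kb 0% and 8.46%. Removal of the trend left 3 members lower and 4 higher at that level, with 1201 lower and 1416 higher genes in the whole table. The implied interval lay within a 2-fold change either way for 70 of 86 nuclear and 10 of 13 mitochondrial members.

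**Figure D1:**
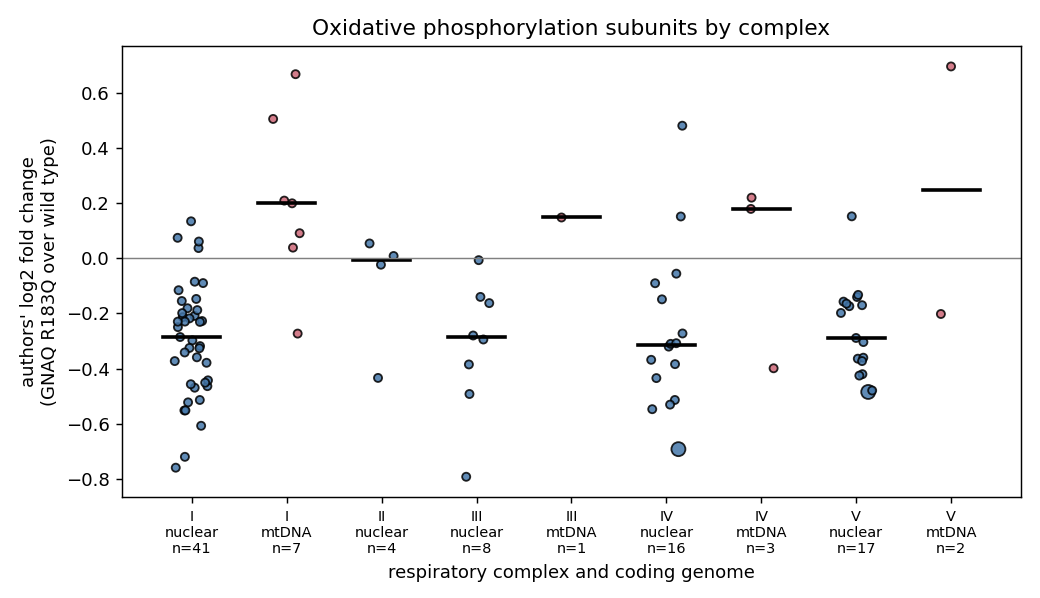
Authors' log2 fold change (GNAQ R183Q over wild type, vertical axis) of each subunit gene by complex and coding genome; black bars are medians and the 2 large points passed an adjusted p of 0.05. Nuclear medians lie between -0.32 and -0.01, and mitochondrial medians between 0.15 and 0.25.

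Mitochondrial genes supplied the larger share of this RNA, with 8.30% of the summed mean expression, against 0.814% for the nuclear members. Mean expression per kb of transcript had a median of 168964 over the mitochondrial and 1712 over the nuclear members of known length. On that scale mt-Co2, a copper-bearing subunit of complex IV, was highest with 350237 per kb, followed by mt-Atp6, the proton channel subunit of the ATP synthase, with 343325 per kb. The lowest mitochondrial member was mt-Nd6, a complex I subunit gene on the opposite strand, with 4251 per kb. Among nuclear members the catalytic ATP synthase subunit Atp5b led with 12465 per kb, and the complex IV subunit Cox4i1 had 10032 per kb. Lengths are those of the longest annotated transcript, which can overstate the length in use, and no spread over libraries is at hand to tell neighbours in this order apart.

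mt-Atp8 had the top log2 fold change of the members. It stood by the authors' deposited table at 0.70, the interval running from 0.26 to 1.13, and its adjusted p of 0.0520 (DESeq2) was just above the threshold. Its mean z-score was 0.719 in GNAQ R183Q and -0.719 in wild type, short of 0.810, above which all 4 libraries of each genotype must separate. The 2 middle libraries averaged 0.591 in GNAQ R183Q and -0.695 in wild type. mt-Atp6, whose coding sequence shares the 43 bases, stood at -0.20 by the authors' deposited table, with -0.62 and 0.21 as the ends of its interval. These 2 intervals do not overlap, although the difference itself was not tested, and how reads in the shared bases were counted is not given in the sources used here. Because their coding sequences overlap, mt-Atp8 and mt-Atp6 are not shown to have separate RNAs, and their values are not shown to be those of 2 RNAs.

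mt-Nd4l came next with 0.67 by the authors' deposited table, but with a wide interval of -0.22 to 1.56. mt-Nd4, which shares 7 bases with it, stood at 0.21, and by the authors' deposited table its interval was -0.42 to 0.84. These 2 genes are likewise not shown to have separate RNAs. mt-Nd6 stood at 0.51 by the authors' deposited table, with an interval of 0.08 to 0.94 and a DESeq2 adjusted p of 0.235. mt-Nd6 and mt-Nd5 are neighbours on opposite strands, and the strand setting used in counting is not known here, so reads of this pair may not be told apart. mt-Nd5 itself stood at 0.09, mt-Nd1 at 0.20 and mt-Nd2 at 0.04 by the authors' deposited table, all membrane subunits of complex I. mt-Cytb, the cytochrome b of complex III, stood at 0.15, and the complex IV core subunits mt-Co1 and mt-Co2 at 0.18 and 0.22 by the authors' deposited table. The intervals of mt-Nd1, mt-Nd2, mt-Nd5, mt-Cytb, mt-Co1 and mt-Co2 all included 0.

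The 3 mitochondrial members with negative values, mt-Atp6, mt-Co3 and mt-Nd3, lie next to each other on the genome in that order. mt-Co3, a core subunit of complex IV, was the lowest of the 13 with -0.40 by the authors' deposited table, and its interval reached from -0.95 to 0.15. mt-Nd3, a short complex I gene of 348 bases, stood at -0.27 by the authors' deposited table, with a wide interval of -1.22 to 0.67. None of these 3 passed the DESeq2 threshold, adjusted or not. The ribosomal RNAs mt-Rnr1 and mt-Rnr2, which are no members, had a median log2 fold change of -0.09. Their median level was 8489 per kb, against 168964 per kb over the mitochondrial members, and they were not used as a reference. Mitochondrial genes have near copies in nuclear DNA, and how reads that match both were treated is likewise unknown here.

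**Figure D2:**
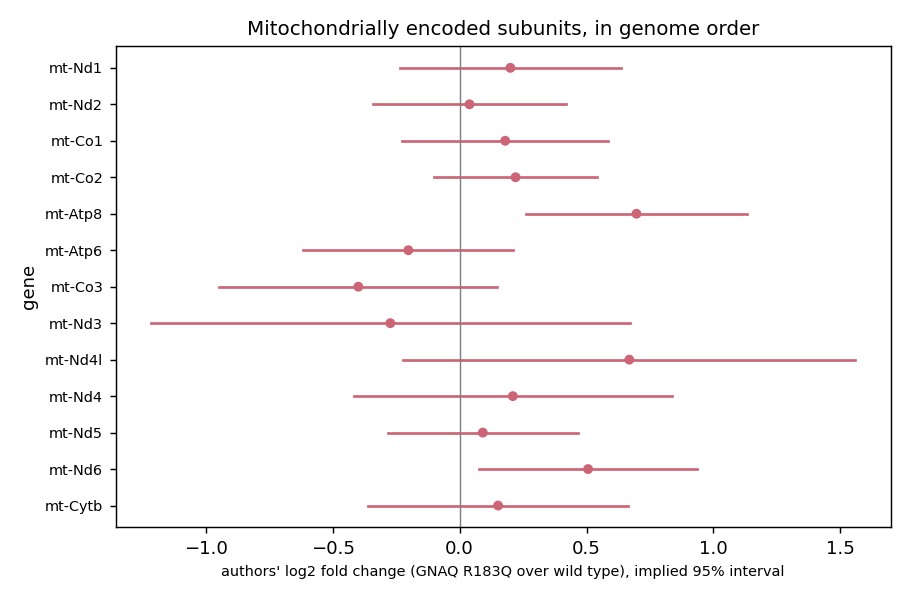
Authors' log2 fold change (GNAQ R183Q over wild type, horizontal axis) of the 13 mitochondrial members in the order of the genome, with implied 95% intervals. mt-Atp8 and mt-Nd6 have intervals above 0, and the neighbours mt-Atp6, mt-Co3 and mt-Nd3 are the 3 with negative values.

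Complex I, the NADH dehydrogenase, had 37 of 41 nuclear members negative, with a median of -0.29. None of them passed the adjusted threshold (0 higher and 0 lower, authors' DESeq2), and 7, or 17.1%, were lower and 0 higher at an unadjusted p of 0.05. The share lower was 8.23% over all genes and 21.4% over other genes of at least 1 CPM with transcripts of up to 1 kb. By name family the medians were -0.44 over 13 Ndufb genes, which encode accessory subunits of the membrane arm, -0.22 over 14 Ndufa genes and -0.19 over 9 Ndufs genes.

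Ndufc2, an accessory membrane subunit, had the smallest p of the nuclear complex I genes. Its log2 fold change by the authors' deposited table was -0.76, the interval -1.35 to -0.17 and the DESeq2 adjusted p 0.169. The mean z-score of Ndufc2 was -0.560 in GNAQ R183Q and 0.560 in wild type, and its 2 middle libraries averaged -0.376 in GNAQ R183Q and 0.328 in wild type. The genotypes were thus not shown to be apart in every library. Ndufs7, the core subunit with the iron-sulphur cluster next to the coenzyme Q site, stood at -0.72 by the authors' deposited table, with an interval of -1.30 to -0.14. Ndufc1, a neighbour of Ndufc2 in the enzyme, stood at -0.61 by the authors' deposited table, and its interval of -1.27 to 0.05 included 0. The accessory subunits Ndufb11, Ndufa6, Ndufb10 and Ndufb7 stood at -0.55, -0.52, -0.46 and -0.45 by the authors' deposited table, and the flavin-binding core subunit Ndufv1 at -0.33. Each of these 5 had an interval below 0 and an adjusted p above 0.05 (DESeq2).

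At the upper end of complex I were the small accessory subunits Ndufa3 at 0.13, Ndufa1 at 0.07 and Ndufb3 at 0.04 by the authors' deposited table. The large iron-sulphur core subunit Ndufs1 stood at 0.06 by the authors' deposited table, with a narrow interval of -0.14 to 0.27. Ndufb4b, Ndufb4c and Ndufs5-ps are copies of Ndufb4 and Ndufs5 that may share reads with them, so the values of all 5 are uncertain.

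Complex II, the succinate dehydrogenase, is encoded wholly in the nucleus and also belongs to the tricarboxylic acid cycle. Its 4 members had a median log2 fold change of -0.01, with 2 negative. Sdha, the flavoprotein, stood at 0.01 by the authors' deposited table with an interval of -0.19 to 0.21, and the membrane anchors Sdhc and Sdhd at -0.02 and 0.05. Sdhb, the iron-sulphur subunit, stood at -0.43 by the authors' deposited table, with an interval of -0.95 to 0.09 and a DESeq2 adjusted p of 0.465. The differences among these 4 were not tested. Complex II transcripts had a median length of 2066 bases, against 861 over all nuclear members.

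Complex III, the cytochrome bc1 complex, had all 8 nuclear members negative, with a median of -0.29. By the authors' DESeq2 0 were higher and 0 lower at the adjusted threshold, and 2, or 25%, were lower and 0 higher at an unadjusted p of 0.05. That compares with 8.23% lower over all genes and 21.4% over other genes of at least 1 CPM with transcripts of up to 1 kb. Of the large core proteins, Uqcrc1 stood at -0.38 by the authors' deposited table with an interval of -0.75 to -0.02 and a DESeq2 adjusted p of 0.308, and Uqcrc2 at -0.01 with an interval of -0.27 to 0.25. Uqcrfs1, the Rieske iron-sulphur protein, stood at -0.28 by the authors' deposited table. Uqcr11, a small accessory subunit, stood at -0.49 and Uqcrh, the hinge protein, at -0.14 by the authors' deposited table. Uqcrq, another small subunit, was the lowest of all members at -0.79, but by the authors' deposited table its interval was wide, -1.74 to 0.16.

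Complex IV, the cytochrome c oxidase, held 1 of the called members among 16 nuclear genes, of which 14 were negative with a median of -0.32. Cox6a2, the heart and skeletal muscle form of subunit VIa, fell by the authors' deposited table at a log2 fold change of -0.69, or 0.619-fold, with an interval of -1.10 to -0.28 and a DESeq2 adjusted p of 0.0331. Its mean z-score was -0.750 in GNAQ R183Q and 0.750 in wild type, and the 2 middle libraries averaged -0.934 in GNAQ R183Q and 0.503 in wild type. That is short of the bound of 0.810, so overlap between libraries remains possible. Cox6a1, the form used in most tissues, had a mean expression of 1694, against 319 for Cox6a2, and by the authors' deposited table stood at -0.43 with a DESeq2 adjusted p of 0.350. The difference between the 2 forms was not tested. The call of Cox6a2 ended when the length and GC trend was taken out, at a log2 fold change of -0.48 and an adjusted p of 0.256. In a linear model of log2 CPM its adjusted p was 0.299, but that model called 0 genes in the whole table.

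Skeletal muscle markers were counted beside Cox6a2. Of 24 muscle genes 4 fell and 0 rose (authors' DESeq2), with 19 negative, 5 positive and a median of -0.37. By the authors' deposited table the muscle creatine kinase Ckm was at -1.50, and the fast troponin genes Tnnt3, Tnni2 and Tnnc2 at -0.76, -0.74 and -0.54. Removal of the trend ended the calls of Tnnt3 (adjusted p 0.114) and Tnnc2 (adjusted p 0.298) and left those of Ckm and Tnni2. Of 9 brown fat genes 2 fell and 0 rose, with 6 negative, 3 positive and a median of -0.38, and they were the fat cell regulators Pparg and Cebpa, which the authors' deposited table has at -0.74 and -0.66. Both calls ended without the trend, with adjusted p-values of 0.0512 for Pparg and 0.203 for Cebpa. The part of muscle or fat cells in the value of Cox6a2 was not tested. Cox8b and Cox7a1, the forms of muscle and brown fat, had mean expression of 12.5 and 11.1, below the 26.8 read as 1 CPM, and stood at -0.55 and -0.53 by the authors' deposited table with intervals that include 0.

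Cox6b2, known as the testis form of subunit VIb, had the top log2 fold change of the nuclear members. It stood at 0.48 by the authors' deposited table, with an interval that just includes 0 and reaches 0.97, and a DESeq2 adjusted p of 0.355. Its mean z-score was 0.854 in GNAQ R183Q and -0.854 in wild type, past 0.810, so all 4 GNAQ R183Q libraries lay above all 4 wild-type libraries on the log2 CPM scale. Its mean expression was low, 53.7, against 3154 for Cox6b1, the common form, which stood at -0.09 by the authors' deposited table.

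Among the other isoform sets, every gene plotted had a negative value and none but Cox6a2 passed the DESeq2 threshold. Cox4i1, the main form of subunit IV, stood at -0.51 by the authors' deposited table with an interval of -1.06 to 0.03, and Cox4i2, known from lung and from cells at low oxygen, at -0.38. Ndufa4, now assigned to complex IV, stood at -0.29, and by the authors' deposited table its hypoxia-linked relative Ndufa4l2 was at -0.51 with an interval of -1.68 to 0.66. Both were counted with complex I here, by their symbols. Moved to complex IV, they would leave the nuclear medians at -0.25 for complex I and -0.32 for complex IV. Cox7a2 and Cox7a2l, a factor that joins complexes III and IV, stood at -0.27 and -0.31 by the authors' deposited table. The small subunits Cox7b and Cox8a stood at -0.06 and -0.15 by the authors' deposited table, while Cox5b, a subunit without isoforms, stood at 0.15. Cox7b2 and Cox8c were not analysed here.

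**Figure D3:**
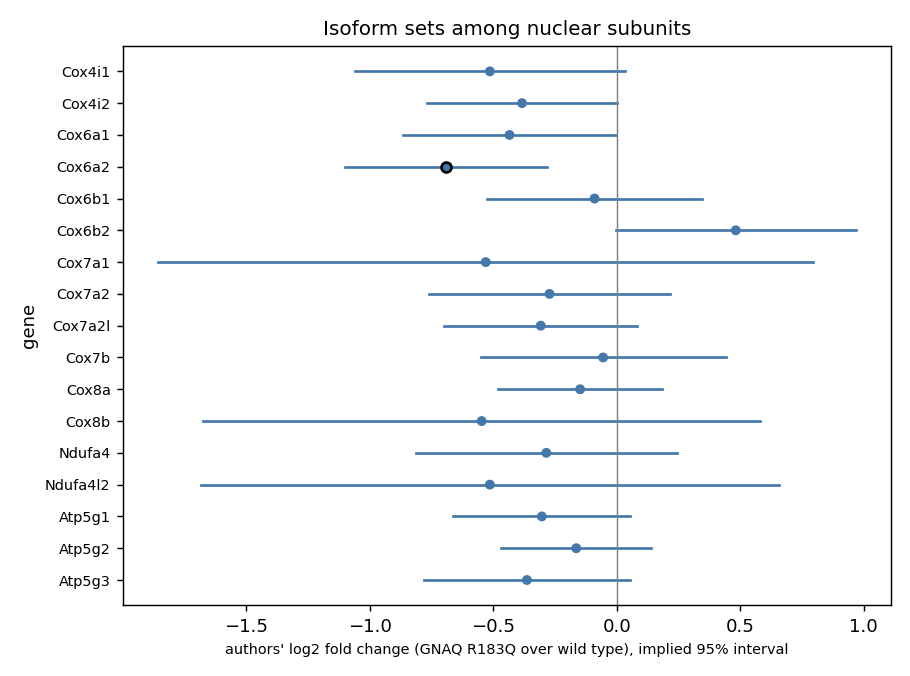
Authors' log2 fold change (GNAQ R183Q over wild type, horizontal axis) of subunits with more than 1 isoform, with implied 95% intervals; the outlined point passed an adjusted p of 0.05. Cox6a2 at -0.69 is the only such isoform, and Cox6b2 at 0.48 the only one with a positive value.

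The ATP synthase held the other called member among 17 nuclear genes, of which 16 were negative with a median of -0.29. Atp5d, the delta subunit of the central stalk, fell by the authors' deposited table at -0.48, or 0.715-fold, with an interval of -0.75 to -0.22 and a DESeq2 adjusted p of 0.0189. Its mean z-score was -0.828 in GNAQ R183Q and 0.828 in wild type, so all 4 GNAQ R183Q libraries lay below all 4 wild-type libraries. The middle libraries of Atp5d averaged -0.825 in GNAQ R183Q and 0.812 in wild type, and the outer libraries -0.831 in GNAQ R183Q and 0.844 in wild type. Atp5d and Cox6b2 were the 2 of 99 members past the separation bound, against 2.58% of all genes. Without the length and GC trend Atp5d stood at -0.21 with an adjusted p of 0.560, which ended the call. In the linear model, which called 0 genes of the table, its adjusted p was 0.177.

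The other subunits of the catalytic F1 part had intervals that include 0. Atp5a1 and Atp5b, which form the catalytic ring, stood at -0.16 and -0.17 by the authors' deposited table, and the stalk subunits Atp5c1 and Atp5e at -0.29 and -0.48. The 3 genes that encode the same mature c-ring protein, Atp5g1, Atp5g2 and Atp5g3, stood at -0.30, -0.16 and -0.36 by the authors' deposited table. The peripheral stalk genes Atp5pb, Atp5h, Atp5j and Atp5o had a median of -0.17, and 5 small membrane subunits had -0.37. Atp5k, the e subunit, was the only one of the 17 with a positive value, 0.15 by the authors' deposited table.

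The mean and the median z-score of a genotype also give the mean of its 2 outer libraries, the highest and the lowest. Over the nuclear members the middle libraries had a median z-score of -0.250 in GNAQ R183Q and 0.113 in wild type. The outer libraries had -0.350 in GNAQ R183Q and 0.546 in wild type, so the genotypes lay further apart there. In wild type the mean lay above the median in 66 of 86 nuclear members, or 76.7%, against 44.9% of genes of at least 1 CPM. In most of these genes the top wild-type library was therefore further from the middle than the bottom one.

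The mitochondrial members had the opposite skew in wild type. Their middle libraries had a median z-score of 0.412 in GNAQ R183Q and 0.118 in wild type, and their outer libraries 0.146 in GNAQ R183Q and -0.744 in wild type. In wild type the mean lay below the median in 10 of the 13. The outer wild-type value ran from -0.940 for mt-Co1 to -0.502 for mt-Nd2 in the 10 members with a positive fold change. It was 0.338 for mt-Atp6, 0.444 for mt-Nd3 and 0.695 for mt-Co3, the members with negative ones. Whether the same library lies at these ends in every gene cannot be read from these values.

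**Figure D4:**
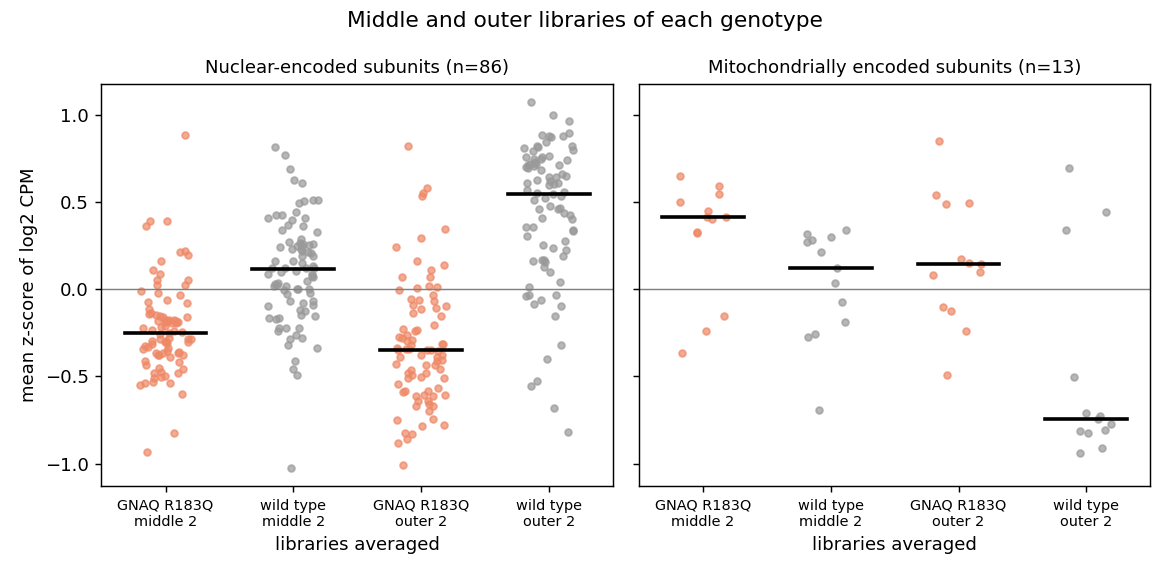
Mean z-score of log2 CPM (vertical axis) of the 2 middle and the 2 outer libraries of each genotype, 1 point per subunit gene, with black bars at the medians. In the outer wild-type libraries the nuclear members have a median of 0.546 and the mitochondrial members of -0.744.

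Nuclear members have short transcripts, with a median of 861 bases, against 3199 in other genes of at least 1 CPM, and short genes of other kinds were lower too. The 51 nuclear members of up to 1 kb had a median log2 fold change of -0.34 with 88.2% negative, and the 676 other genes of that length had -0.25 with 77.7% negative. Between 1 and 2 kb the medians were -0.23 over 24 nuclear members and -0.14 over 2616 other genes, and above 2 kb they were -0.17 over 9 nuclear members and 0.03 over 10561 other genes. Because each length is that of the longest annotated transcript, it can overstate the length in use. Of those 9 members 7 were negative, in a range of -0.47 to 0.06. Among them were Atp5g1 (4715 bases) at -0.30 and Ndufb2 (4371 bases) at -0.36. Log2 length and log2 fold change had a Pearson r of 0.09 across 82 nuclear members and 0.29 across 13853 other genes, which all share the same libraries. For GC content the Pearson r was -0.20 across these nuclear members and -0.22 across the other genes. Across the 13 mitochondrial members it was -0.38 for log2 length and -0.04 for GC content. Once the trend on length and GC content was removed, the nuclear median was -0.11 with 61 of 86 negative, and the mitochondrial median was 0.28 with 3 of 13 negative. By complex the nuclear medians were then -0.10 for complex I, 0.01 for complex II, where the sign turned, -0.11 for complex III, -0.15 for complex IV and -0.16 for the ATP synthase. The part of transcript length in the subunit values was not tested.

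**Figure D5:**
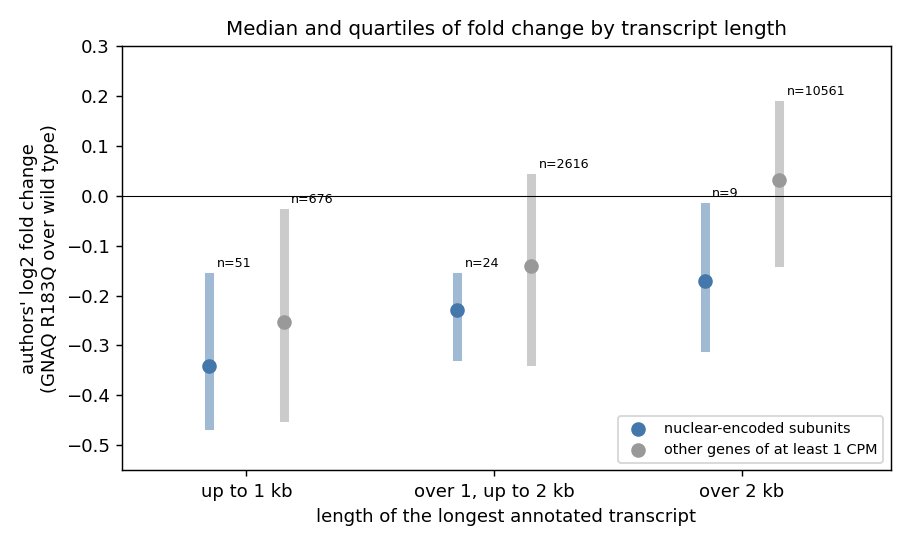
Median (points) and quartiles (bars) of the authors' log2 fold change (GNAQ R183Q over wild type, vertical axis) by length of the longest annotated transcript, for nuclear members and for other genes of at least 1 CPM. In genes of up to 1 kb the medians are -0.34 and -0.25, and above 2 kb they are -0.17 and 0.03.

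Ribosomal protein genes, chosen after their values were seen, had median log2 fold changes close to that of the nuclear members. The cytosolic set had a median transcript length of 882 bases and a median level of 12909 per kb. The mitochondrial set had 1328 bases and 552 per kb, against 861 bases and 1712 per kb for the nuclear members. The 109 genes taken as cytosolic, by symbols of Rps or Rpl and a digit, had a median log2 fold change of -0.29 with 78.0% negative. They ranged from -1.13 to 5.55 and from 2.76 to 57939 per kb, and genes of other kinds with such symbols may be among them. The 78 mitochondrial ones had a median log2 fold change of -0.23 with 92.3% negative. The lower values of the nuclear subunits are thus not shown to be particular to oxidative phosphorylation.

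Genes that assemble the complexes were counted from lists. Of 18 complex I assembly genes 15 were negative, with a median of -0.13 and a lowest value of -0.96. In this list 4, or 22.2%, were lower and 0 higher at an unadjusted p of 0.05, against 8.23% lower over all genes. At the adjusted threshold 1 fell and 0 rose (authors' DESeq2). The gene was Acad9, an assembly factor related to fatty acid dehydrogenases, which stood at -0.76 by the authors' deposited table with an interval of -1.03 to -0.49 and a DESeq2 adjusted p of 4.16e-06. Assembly genes of complexes II, III and IV and of the ATP synthase, which number 4, 6, 24 and 5, had 0 called by the authors' DESeq2, with medians of -0.10, 0.01, -0.26 and -0.17. At an unadjusted p of 0.05, 1, 1, 2 and 0 of them were lower and 0 higher. The smallest p in each of these lists belonged to Sdhaf1, Uqcc3, the copper chaperone Coa6 and Tmem242, which stood at -0.54, -0.44, -1.21 and -0.37 by the authors' deposited table.

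Lists of genes that feed the chain followed. Those for coenzyme Q synthesis (13 genes), the tricarboxylic acid cycle (18) and mobile carriers and exchangers (11) had 0 called by the authors' DESeq2, with medians of -0.17, -0.07 and -0.14. With an unadjusted p of 0.05, 1, 0 and 0 of these genes were lower and 0 higher. Their smallest p belonged to Coq8b, to the malate dehydrogenase Mdh2 and to the uncoupling protein Ucp3, at -0.41, -0.24 and -1.20 by the authors' deposited table. Ucp3 had a mean expression of 7.49, below 1 CPM, and a wide interval of -2.55 to 0.14. Genes for upkeep and transcription of mitochondrial DNA were balanced, with 15 of 30 negative, a median of -0.01 and 0 called by DESeq2, against 3 higher and 2 lower at an unadjusted p of 0.05. The smallest p there was that of Mterf1b, at 0.41 by the authors' deposited table. Of 12 regulators of nuclear respiratory genes 2 were negative, the median was 0.08 and 0 were called by DESeq2. At an unadjusted p of 0.05, 1 was lower, the estrogen-related receptor Esrra, which stood at -0.42 by the authors' deposited table with a DESeq2 adjusted p of 0.170.

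Markers of other skin cells changed in the same libraries. Of 13 suprabasal epidermis genes 11 fell and 0 rose, with a median of -1.41, and by the authors' deposited table the cornified envelope gene Lor was at -3.70, the keratin Krt77 at -2.28 and Sbsn at -1.76. The basal epidermis list had 1 of 7 genes lower and 0 higher past the threshold, with 3 positive and a median of -0.09, and that gene was the keratin Krt15 at -1.01 by the authors' deposited table. Of 9 dermal fibroblast genes 2 fell and 0 rose, with 2 positive and a median of -0.19, and these were Mfap5 at -1.21 and Dpt at -0.50 by the authors' deposited table. Of 10 erythroid genes 1 rose and 1 fell, with 3 positive and a median of -0.35, namely the embryonic globin Hbb-y at 0.98 and Hba-a2 at -0.65 by the authors' deposited table. Removal of the trend ended the calls of Dpt (adjusted p 0.0614) and Hba-a2 (adjusted p 0.405), and that of Hba-a2 also ended when the median of genes of at least 1 CPM was subtracted (adjusted p 0.0502). The part of cell composition in the subunit values was not tested.

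Promoters were searched because the nuclear members had fold changes of like sign. Shown are the 250 bases before the start of 3 genes, 1 each from complexes IV, I and V, with the NRF1 core in capitals, from RefSeq promoters of GRCm38.p6. Cox6a1 (minus strand, chr5:115348959-115349208) holds the core in 2 places, and Ndufa11 (plus strand, chr17:56717512-56717761) and Atp5g2 (minus strand, chr15:102671048-102671297) hold it in 1.
Cox6a1: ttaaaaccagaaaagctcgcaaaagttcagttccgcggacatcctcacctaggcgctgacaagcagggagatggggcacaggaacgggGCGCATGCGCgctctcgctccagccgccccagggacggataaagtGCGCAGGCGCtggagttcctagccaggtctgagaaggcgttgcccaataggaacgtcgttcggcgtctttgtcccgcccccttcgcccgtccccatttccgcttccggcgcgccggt
Ndufa11: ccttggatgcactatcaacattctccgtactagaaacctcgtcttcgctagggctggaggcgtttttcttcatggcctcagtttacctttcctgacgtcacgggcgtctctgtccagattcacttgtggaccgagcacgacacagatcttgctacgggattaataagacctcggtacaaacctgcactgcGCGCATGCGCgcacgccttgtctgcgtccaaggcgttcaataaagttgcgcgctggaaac
Atp5g2: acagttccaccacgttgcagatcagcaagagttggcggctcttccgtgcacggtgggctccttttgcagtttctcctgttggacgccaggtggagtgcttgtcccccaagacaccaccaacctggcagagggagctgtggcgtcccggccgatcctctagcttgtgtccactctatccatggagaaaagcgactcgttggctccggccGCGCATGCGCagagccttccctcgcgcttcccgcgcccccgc
By the authors' deposited table the log2 fold change was -0.43 for Cox6a1, -0.23 for Ndufa11 and -0.16 for Atp5g2. These 3 are examples, and Atp5k of complex V, which also holds the core, stood at 0.15.

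RefSeq promoters, from 250 bases before to 50 after the start, were found for 69 nuclear members and searched on both strands. The NRF1 core was taken as the capital letters of Atp5g2 with any base in the place of the T. It stood in 17 of the 69, or 24.6%, against 5.19% of all 27025 genes with a promoter and 10.8% of those of at least 1 CPM. With the T in place, it stood in 5 of the 69, or 7.25%, against 1.07% of all genes and 2.18% of those of at least 1 CPM. The ETS motif CCGGAAG, which GABP binds, stood in 17, or 24.6%, against 9.93% of all genes and 18.8% of those of at least 1 CPM. The YY1 motif AAGATGG stood in 11, or 15.9%, against 7.28% of all genes and 7.95% of those of at least 1 CPM. The estrogen-related receptor motif AAGGTCA stood in 8, or 11.6%, against 5.38% of all genes and 3.82% of those of at least 1 CPM.

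The log2 fold changes were set side by side for members with and without each motif, with no test. The median was -0.29 in members with the NRF1 core, of which 14 of 17 were negative, and -0.29 in those without it. For the ETS motif it was -0.32 with the motif and -0.29 without it. It was -0.20 with the YY1 motif and -0.29 without it, and -0.36 with the estrogen-related receptor motif and -0.28 without it. Of the 69 members 29, the called Atp5d among them, held no searched motif in this window. A match describes letters and is no shown binding site.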

How the data were processed

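RNA-seq of 4 GNAQ R183Q and 4 wild-type back skin samples was analysed from the authors' table of 20152 genes. DESeq2 and the build mm39 are named in the submitters' processing notes, and the sources used here give no aligner, annotation, strand setting or filter. Mean expression is a signal averaged over libraries by the authors, per the file headers, and 26.8 units were read as 1 CPM from its sum of 2.68e+07. Per the file headers, the authors also made the log2 fold change with its p-value, and the z-scores, which are scores of log2 CPM. Standard errors are the absolute log2 fold change over the normal quantile of the authors' p, and intervals span 1.96 of them. An edgeR test was planned only for counts per library, and the authors' adjusted p was used instead. A linear model of log2 CPM (6 residual degrees of freedom) was rebuilt from mean z-scores. A mean z-score above 0.810 means that 4 against 4 libraries separate, and the outer libraries' mean is 2 times the mean less the median. Length and GC content come from the longest GENCODE vM21 transcript (97 of 99 members, 88.6% of genes), and their spline trend was fitted to 13948 genes with statsmodels 0.14.6. Scripts (Python 3.11.15, scipy 1.17.1) were tested on simulated data. Named were called members, extremes by p, level and fold change, all mitochondrial members, isoform sets, complex II, and up to 4 called genes per list and direction, or its smallest p; others were named after their values were seen. Members and lists were chosen with earlier results of these data known.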

Additional observations from a re-analysis of the deposited data

How the results depend on the processing

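Subtracting the median of genes of at least 1 CPM left 0 higher and 2 lower members. Removing the length and GC trend gave 1 higher member (mt-Atp8, adjusted p 0.0210) and 0 lower, with 4 higher and 3 lower at an unadjusted p of 0.05. That trend was fitted to 13948 genes. The mitochondrial members did not follow it in length, with a Pearson r of -0.38 against 0.29 in other genes. With genes of at least 1 CPM only there was 1 higher member (mt-Atp8, adjusted p 0.0394) and 2 lower, and an adjusted p of 0.1 gave the same counts. The linear model called 0 members and 0 genes of the table in either direction, against 127 higher and 495 lower by DESeq2. Its smallest adjusted p was 0.0503, and at an unadjusted p of 0.05 it had 2 higher and 2 lower members. Asking also for a 1.5-fold change, chosen after seeing the data, left 1 lower member, Cox6a2. The nuclear median ran from -0.29 to -0.11 and the mitochondrial from 0.18 to 0.28. No paired analysis was possible because the table holds no value per library, and for the same reason replicates could not be left out and count models were not run. Depth is unknown, and the median implied standard error was 0.23 for nuclear and 0.22 for mitochondrial members on the log2 scale.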
